A study of Mus musculus with 14 samples.

Results

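Chromatin accessibility 30 min and 90 min after growth hormone (GH) was compared through DNase-seq peak calls in mouse liver. The regions were the peaks of 4 libraries, 2 at each time, merged wherever they shared at least 1 bp. This gave 29901 regions, against 48148 when all 14 libraries of the series were merged. Of the 29901 regions, 15423 were called in all 4 libraries, 515 in both 30 min libraries and neither 90 min library, and 880 in both 90 min libraries and neither 30 min library.

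The animals at both times were male CD-1 (ICR) mice aged 7 weeks whose pituitary had been removed by the supplier (hypox males). Each received 1 intraperitoneal injection of recombinant rat GH at 125 ng per g body weight. Each library was made from DNase I-released fragments of 3 livers, so a pool of livers was the replicate, and whole liver was assayed rather than sorted cells. Other groups were used only to place the regions: untreated hypox males, hypox males 240 min after GH, hypox females and intact females, all CD-1 mice of the same age. Whether the untreated hypox males were given vehicle is not stated in the labels. The titles of all libraries at 30, 90 and 240 min carry the code G92, whereas the untreated hypox males carry G103, so GH and code cannot be told apart in any comparison with untreated males.

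GH is a pituitary hormone that acts on liver through its receptor, the associated kinase JAK2 and the transcription factor STAT5. Phosphorylated STAT5 enters the nucleus and binds the consensus TTCNNNGAA near genes such as Igf1, Cish and Socs2. DNase I cuts preferentially where nucleosomes are displaced, so its cutting marks promoters and enhancers in use. A hypox male has no pulsatile GH of its own, and the injection acts as a lone experimental pulse. In whole liver, more cells with an open site and a more open site per cell cannot be told apart.

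The sequences below are shown because each contains the STAT5 consensus in a region that stood out in time. The Bcl6 intron region was called at both times after GH and in no other library of the series. The Igf1 and Adh7 regions were called only at 90 min, the Insr region only at 30 min, and the last pair were among the 10 regions with the smallest p in the pileup comparison. All are 201 bp windows around the summit on the plus strand of mm9, and capitals mark the matches to TTCNNNGAA, a palindrome that reads the same on both strands and can overlap BCL6 sites.
Bcl6, chr16:23981358-23981558: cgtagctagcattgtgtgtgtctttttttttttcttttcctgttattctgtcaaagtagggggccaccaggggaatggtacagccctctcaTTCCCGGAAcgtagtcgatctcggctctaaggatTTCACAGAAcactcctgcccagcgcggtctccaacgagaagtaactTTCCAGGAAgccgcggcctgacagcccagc
Igf1, chr10:87328502-87328702: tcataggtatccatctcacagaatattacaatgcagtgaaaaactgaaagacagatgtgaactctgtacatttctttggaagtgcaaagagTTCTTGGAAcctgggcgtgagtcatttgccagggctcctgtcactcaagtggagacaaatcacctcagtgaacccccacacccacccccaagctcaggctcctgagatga
Adh7, chr3:137891701-137891901: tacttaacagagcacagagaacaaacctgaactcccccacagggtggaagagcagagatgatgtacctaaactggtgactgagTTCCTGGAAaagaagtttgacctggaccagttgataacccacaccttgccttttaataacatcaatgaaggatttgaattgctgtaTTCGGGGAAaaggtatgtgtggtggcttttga
Insr, chr8:3222941-3223141: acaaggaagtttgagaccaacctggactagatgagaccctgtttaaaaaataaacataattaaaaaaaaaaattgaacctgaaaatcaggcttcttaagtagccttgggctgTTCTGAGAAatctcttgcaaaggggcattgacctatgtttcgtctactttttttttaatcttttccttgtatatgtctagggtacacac
Sec24b, chr3:129761896-129762096: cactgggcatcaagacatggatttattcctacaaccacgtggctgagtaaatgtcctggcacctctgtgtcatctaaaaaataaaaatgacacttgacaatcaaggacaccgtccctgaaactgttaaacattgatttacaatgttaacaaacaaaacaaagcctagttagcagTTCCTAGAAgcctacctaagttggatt
5031414D18Rik side, chr14:75454629-75454829: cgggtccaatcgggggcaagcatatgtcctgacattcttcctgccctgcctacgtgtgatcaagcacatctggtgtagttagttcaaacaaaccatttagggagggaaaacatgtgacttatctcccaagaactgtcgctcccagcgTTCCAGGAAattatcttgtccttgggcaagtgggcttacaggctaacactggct
The Bcl6 window held 3 matches and the Adh7 window held 2, while the other windows held 1 each. For reference, 12.7% of all 29901 windows held the consensus. A match is a string of letters and does not show binding.

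The 4 libraries were similar in size. The 30 min pools had 14992887 and 16733489 tags with 22212 and 21438 peaks, and the 90 min pools had 17174839 and 14947292 tags with 25054 and 20964 peaks. Of the 14 annotated genes of secreted proteins and metabolic enzymes that define hepatocytes, 13 had a region, and all 13 had one in all 4 libraries. Stellate cell markers had a region at 3 of 8 genes and lymphocyte markers at 1 of 8, with no region of either list called in all 4 libraries. Kupffer cell markers had a region at 1 of 7 annotated genes, cholangiocyte markers at 2 of 6 and endothelial markers at 6 of 8.

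Most regions were shared between the times. At least 1 pool of each time called 21405 regions (71.6%), and all 4 libraries called 15423 (51.6%). The 30 min-only class held 515 regions, or 1.72% of all regions, and the 90 min-only class held 880, or 2.94%. By comparison, 7101 regions (23.7%) were called in a lone library, of which 3073 came from 90 min pool 1, the library with the most tags and peaks. Pools of 1 time were not more alike in their calls than pools of different times. The Jaccard index, the share of regions called in either library that both called, was 0.697 between the 30 min pools and 0.7 between the 90 min pools. Across times it ranged from 0.679 to 0.71. With 2 pools a time the smallest exact two-sided permutation p is 0.333, so neither class count can reach 0.05. Without 30 min pool 2, 2371 regions were called at 30 min only and 1923 at 90 min only. The 30 min-only class then needed a call in 1 pool, and the 90 min-only class still in 2. The order of these 2 counts therefore cannot be read as a difference between the times.

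The regions of both classes were low. The pileup is the number of extended tags stacked at a peak's summit, here given as tags/M, the tags at the summit per 1000000 tags of the library. Its median was 0.978 tags/M in the 30 min-only class and 0.97 in the 90 min-only class, against 2.11 in regions called in all 4 libraries. Only 10 of the 30 min-only regions (1.94%) and 21 of the 90 min-only regions (2.39%) reached the median of the shared regions. The least significant call of a region had a −log10 q of at least 5 in 246 of the 30 min-only regions (47.8%) and 472 of the 90 min-only regions (53.6%), against 89.1% of shared regions. Both classes thus lay nearer the calling threshold than the shared regions did.

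**Figure D1:**
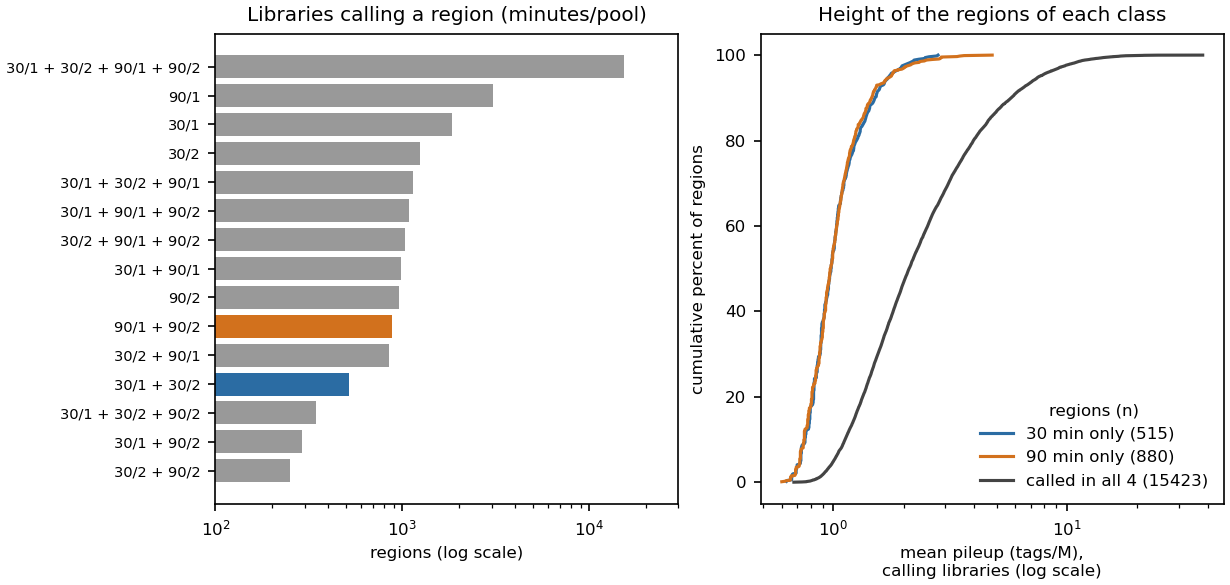
Left, regions by the libraries that called them, labelled as minutes after GH and pool, on a log axis; blue marks the 515 regions of the 30 min-only class and orange the 880 of the 90 min-only class. Right, cumulative percent of regions against mean pileup in tags/M on a log axis; both classes lie far to the left of the 15423 regions called in all 4 libraries.

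Location separated the classes more than height did. A promoter region had its summit within 1000 bp of an annotated transcript start. Promoters made up 56 of the 30 min-only regions (10.9%) and 270 of the 90 min-only regions (30.7%), against 34.8% of all regions. Introns away from promoters held 241 of the 30 min-only regions (46.8%) and 304 of the 90 min-only regions (34.5%). The promoter share remained lower in the 30 min-only class when any pool was left out, at 10.4% to 18.9% against 26.4% to 40.4%.

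The STAT5 consensus was in 12.8% of 30 min-only and 9.55% of 90 min-only windows, against 12.6% of windows called in all 4 libraries and 12.7% of all windows. Among distal windows, those outside promoters, it was in 12.9% and 12.6%, against 17.6% of distal windows called in all 4 libraries and 15.9% of all distal windows. The distal share was thus lower in both classes than in the shared regions. The AP-1 consensus TGANTCA, bound by dimers of Fos and Jun proteins, was in 6.99% of 30 min-only windows and 10% of 90 min-only windows, against 7.52% of all windows. Among distal windows it was in 7.41% and 12.6%, against 9.7% of all distal windows. The ETS site CCGGAAG was in 0.971% of 30 min-only windows and 5.23% of 90 min-only windows, against 6.06% of all windows. The hexamer of nuclear receptors, AGGTCA, was in 27.2% of 30 min-only windows and 19.9% of 90 min-only windows, against 21.2% of all windows. Motifs were searched on both strands, and these shares are descriptions without a test.

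A smaller subset was seen at 1 time and nowhere else in the series. Of the 30 min-only regions, 54 (10.5%) were called in none of the 10 other libraries, and 25 of these held the STAT5 consensus (46.3%). Of the 90 min-only regions, 70 (7.95%) were called in no other library, and 29 of these held the consensus (41.4%). The share of all 29901 regions called in none of the 10 other libraries was 8.37%. The consensus was in 12.7% of all windows. It was in 53% of the 1133 regions that all 4 libraries but neither untreated male pool called. A high share was thus not particular to regions seen at 1 time. Promoters were few in both subsets, at 2 of 54 and 7 of 70.

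Most class regions were open at another time or in another group. Both untreated hypox male pools called 261 of the 30 min-only regions (50.7%) and 392 of the 90 min-only regions (44.5%), against 64.3% of all regions. Both 240 min pools called 172 (33.4%) and 254 (28.9%), against 57% of all regions. Regions called in neither the untreated nor the 240 min males numbered 107 (20.8%) and 136 (15.5%), against 15% of all regions. The classes differed most in intact females, where all 4 pools called 224 of the 30 min-only regions (43.5%) and 131 of the 90 min-only regions (14.9%), against 40.7% of all regions. Singly, intact female pools 1 to 4 called 70.9%, 56.1%, 60.2% and 79.4% of the 30 min-only regions and 48.6%, 40.7%, 26.6% and 58.9% of the 90 min-only regions. The 30 min-only share was thus higher in each pool, with the widest gap in pool 3, a library whose promoters lay low relative to its distal regions. By their titles, intact female pools 3 and 4 carry the code G93. The other intact female pools carry G92, the code of the GH libraries. The gap was seen within distal regions, at 46% and 18.9%, and within promoters, at 23.2% and 5.93%. Over regions called in all 4 GH libraries, the promoter minus distal median log2 pileup was 0 in 30 min pool 1 and 0.312 in 30 min pool 2. It was 0.033, 0 and −0.024 in intact female pools 1, 2 and 4. Whether the code or 30 min pool 1 bears on the gap was not tested.

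**Figure D2:**
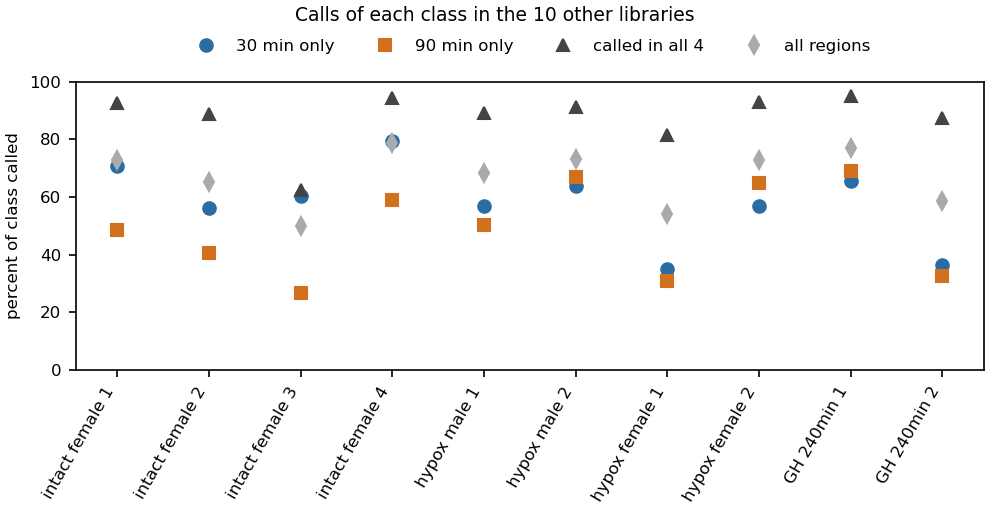
Percent of the regions of each class (vertical axis) called in each of the 10 libraries not used to form the classes (horizontal axis). In the 4 intact female pools the 30 min-only regions (blue circles) lie above the 90 min-only regions (orange squares), while in the other groups the markers lie closer together.

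Of the 10 tallest 30 min-only regions, 6 were called in 9 or 10 of the 10 other libraries and 2 in none of them. Height here is pileup alone. The authors' fold enrichment, a ratio to local background, averaged 3.16 to 4.88 in these 10 regions, against a class median of 4.95. The Atxn1 region, in a gene that encodes a nuclear repressor protein, lay in an intron at chr13:46055778-46056130 with 3.33 and 2.27 tags/M in the 30 min pools. The region 1.7 kb upstream of Phlda1, a growth factor-responsive gene, lay at chr10:110941544-110941990 with 3.33 and 2.21. Both were among the few class regions above the median height of the shared regions. The region in an intron of Arl15 had 2.8 and 2.33 and was called in 2 intact female pools. The region in Nrp2, a semaphorin and VEGF co-receptor, had 2.6 and 2.03 and was called in all 10 other libraries. The region at the start of Usf2, an E-box transcription factor, had 2.33 and 2.09, and that at a start within Adck3, a coenzyme Q synthesis gene, had 1.87 and 2.39 and held the STAT5 consensus; each was called in 9 of the 10 other libraries. The other 4 of the 10 tallest lay near Mfsd1, Tacc1, F730048M01Rik and Gm17507, at 1.79 to 3.13 tags/M, and the first 3 of these were called in all 10 other libraries.

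The tallest regions of the 90 min-only class had higher pileup, and 1 of them lay in a known GH target. Their rank is again by pileup alone. The authors' fold enrichment averaged 8.18 at Psmb10 and 2.85 to 4.03 at the others of the 10 tallest, against a class median of 4.99. The promoter of Psmb10, which encodes an immunoproteasome subunit, lay at chr8:108461948-108462421 with 5.88 and 3.68 tags/M in the 90 min pools, the highest mean of the class, and was called in 3 of the 10 other libraries. The region 2.5 kb upstream of Hivep1, a zinc finger transcription factor gene, had 4.37 and 2.88 and was called in 5 of them. The intron region of Nfib, a nuclear factor I gene, had 3.09 and 3.68 and was called in 9 of them. The region 7.6 kb into Igf1, in an intron at chr10:87328407-87328745, had 2.79 and 2.94 and was called in no other library. It lay next to another Igf1 region, 8.3 kb into the gene and starting at position 87328922, that was called in all 4 libraries with 3.13 and 3.05 at 30 min and 3.78 and 3.08 at 90 min. Igf1 encodes the main circulating mediator of GH on growth, and the window held both the STAT5 and the AP-1 consensus. A coding exon of Adh7, an alcohol dehydrogenase gene, lay at chr3:137891642-137891915 with 2.97 and 2.81 and was likewise called in no other library. The region 1.1 kb upstream of Nfil3, which encodes a repressor with clock and cytokine roles, had 2.91 and 2.74 and held the STAT5 consensus. It was also called in untreated male pool 2 at 2.91, in hypox female pool 2 at 5.83 and in 240 min pool 1 at 2.39. Regions at Rbm47, Pdlim1, Aurkb and Arhgef26 completed the 10 tallest at 2.61 to 3.73 tags/M, with calls in 1 to 8 of the other libraries.

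The GH, hormone and liver gene lists held 0 to 3 regions of each class per list. Against the 1.72% and 2.94% of all regions, the GH and STAT5 target list had 0% of its 45 regions in the 30 min-only class and 2.22% in the 90 min-only class, and the IGF axis had 1.89% of its 53 regions in each. In the 30 min-only class, an intron of Insr, the insulin receptor gene, had 1.4 and 1.61 tags/M at chr8:3222936-3223194 and was called in no other library. The promoter of Ptpn6, a phosphatase that dampens JAK signalling, had 1.4 and 1.73, and the promoter of Cyp17a1, a steroid hydroxylase gene, had 0.934 and 0.956. The region 1.2 kb upstream of Thrsp, a lipogenic gene, had 1.8 and 2.09 and was called in all 10 other libraries. Introns of Pygl, the liver glycogen phosphorylase gene, held 2 such regions, at 0.657 to 1.14. In the 90 min-only class, the promoter of the immediate-early gene Ier2 had 2.21 and 1.94 and held the cyclic AMP response consensus TGACGTCA, and the promoter of Cyp7b1, an oxysterol hydroxylase gene, had 2.04 and 1.54. Regions at Atp6v0d2, Cyp2b10, Hr and Nr5a2 had 0.64 to 1.34. None of these low regions was tested between the times, since a region without a call has no pileup in the deposited lists.

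The pileup comparison used the 15423 regions called in all 4 libraries. By limma on the log2 of these pileups with Benjamini-Hochberg adjustment, 0 regions were higher and 0 lower at 90 min at an adjusted p of 0.05, and the smallest adjusted p was 0.127. At an unadjusted p under 0.05, 1346 regions were higher at 90 min (8.73%) and 272 were lower (1.76%). The median 95% confidence interval, which is not adjusted for the number of regions, reached 0.64 on the log2 scale to each side. Calls after adjustment needed larger differences. Regions with log2 differences of −1.55 and 1.49 had a limma adjusted p of 0.4. In data simulated with these libraries' spread, the fit recovered 100 of 100 regions changed by 2 on the log2 scale and 40 of 100 changed by 1. Both sets were changed in the same simulation. Regions that pass ease the Benjamini-Hochberg threshold for the others, so the 40 of 100 does not carry over to data without such regions. The absence of calls came with 2 pools a time and depended on them: without 30 min pool 1 the same model called 475 regions higher and 13 lower, and without 30 min pool 2 it called 101 higher and 92 lower. In those fits the lone 30 min pool is assumed to vary like the 90 min pools.

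The median difference over the 15423 regions was 0.16 on the log2 scale, higher at 90 min, and fell to 0.03 after each library was centred on its median. Both 90 min pools lay above both 30 min pools in 5268 regions (34.2%) and below in 1483 (9.62%). After median-centring these were 3559 regions (23.1%) above and 2650 (17.2%) below; centring by itself moves these counts towards balance. Correlations of log2 pileup over the regions were 0.876 between the 30 min pools, 0.923 between the 90 min pools and 0.87 to 0.892 across times. These values describe regions within libraries, which are not independent.

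**Figure D3:**
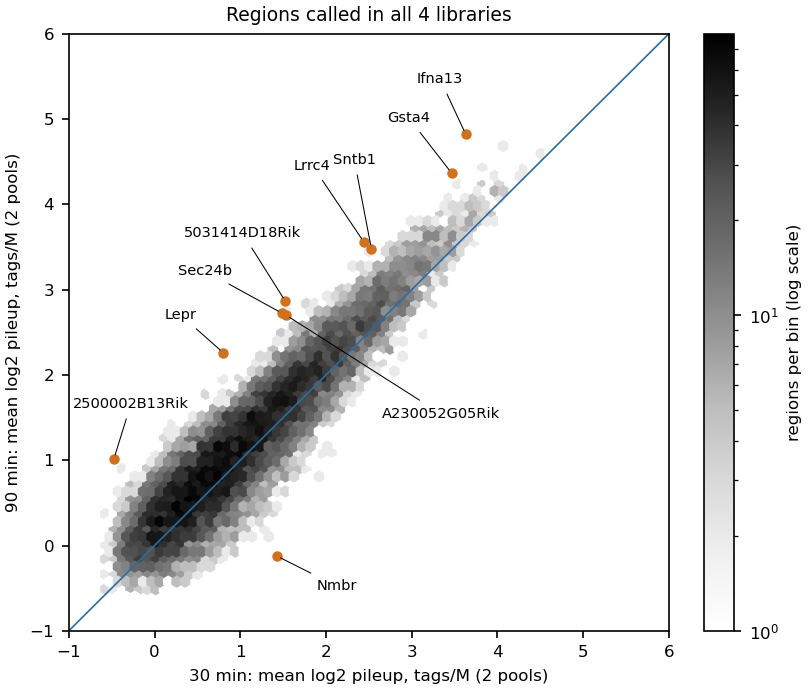
Mean log2 pileup (tags/M) at 90 min (vertical axis) against 30 min (horizontal axis), each over 2 pools, in hexagonal bins of the 15423 regions called in all 4 libraries, shaded by regions per bin on a log scale. Orange points are the 10 regions with the smallest p, named by the gene they lie in or the nearest start; 9 lie above the line of equality and Nmbr lies below it.

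The 10 regions with the smallest p did not pass the adjusted threshold, and their values describe which sites separated the pools best. By the authors' fold enrichment each kept its direction, but the difference was smaller than in pileup. It ranged from 0.25 at Sntb1 to 1.19 at 2500002B13Rik among those higher at 90 min, and was −1.13 at Nmbr. A region 3.3 kb past the start of Ifna13, an interferon alpha gene, at chr4:88286923-88287774 had 11.7 and 13.1 tags/M at 30 min and 32.1 and 24.9 at 90 min. The log2 difference was 1.19 (95% interval 0.81 to 1.57), with a limma adjusted p of 0.127. The untreated hypox males, at 22.6 and 23.8, lay with the 90 min pools. It was the region called after median-centring, with a limma adjusted p of 0.0474, and over regions called in at least 1 library of each time, with 0.0119. Interferon alpha genes are a cluster of near-identical copies, and how reads matching several copies were placed is not given in the sources used here.

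An intron of Lepr, the leptin receptor gene, at chr4:101414227-101415220 had 2.13 and 1.43 tags/M at 30 min and 4.89 and 4.68 at 90 min, a log2 difference of 1.45 (0.85 to 2.06). An intron of Sec24b, which encodes a coat protein of vesicles leaving the endoplasmic reticulum, at chr3:129761536-129762225 had 3.13 and 2.51 at 30 min and 6.4 and 6.82 at 90 min, a log2 difference of 1.24 (0.72 to 1.75). This region held the STAT5 consensus, was not called in untreated males, and had 1.59 and 0.955 at 240 min. The intergenic region 38.9 kb from the start of 5031414D18Rik, at chr14:75454407-75455071, had 3.47 and 2.39 at 30 min and 9.43 and 5.62 at 90 min. It likewise held the consensus, was not called in untreated males and had 2.39 and 1.23 at 240 min. At both sites the 90 min pools were the highest of the male libraries.

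The region at chr9:78023317-78024258, the promoter of C920006O11Rik beside an annotated copy of the small nuclear RNA 7SK and nearest to Gsta4, had 12.3 and 9.92 tags/M at 30 min and 23 and 18.5 at 90 min. A region in Snd1 and Lrrc4 had 5.2 and 5.68 at 30 min and 12.6 and 11 at 90 min. The regions near Sntb1, A230052G05Rik and 2500002B13Rik were also higher in both 90 min pools, by 0.95, 1.16 and 1.49 on the log2 scale. A lone region of the 10 was lower at 90 min. It lay in a gene desert at chr10:15466497-15467233, 986.8 kb from the start of Nmbr, with 3.27 and 2.21 at 30 min and 1.05 and 0.803 at 90 min, and it held the glucocorticoid receptor consensus. In every one of these 10 regions the pools of the 2 times did not overlap, which the choice by smallest p itself favours.

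Direct GH targets were open at both times, with little separation between them. Cish, which encodes a feedback inhibitor of STAT5 signalling, had 1 region in all 4 libraries, at its start at chr9:107198719-107199341. It had 15.4 and 12.9 tags/M at 30 min and 16.4 and 15.8 at 90 min, against 2.64 and 1.54 in untreated males and 10.4 and 7.85 at 240 min. The 4 GH pools lay above the untreated pools without overlap. Both 90 min pools lay above both 30 min pools, by 0.19 on the log2 scale (95% interval −0.18 to 0.57), with a limma adjusted p of 0.703. The window held 2 matches to the STAT5 consensus, TTCCTGGAA at chr9:107198990-107198998 and TTCTTGGAA at chr9:107199001-107199009. On the authors' fold enrichment the difference at Cish was −0.14, so its direction is not settled.

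Igf1 had 13 regions, of which 10 were called in all 4 libraries. The tallest, 48.6 kb into the gene at chr10:87368934-87370030, had 13.6 and 8.9 tags/M at 30 min and 13.4 and 15.1 at 90 min, and the pools overlapped. The region 27.6 kb into the gene had 6.2 and 5.62 at 30 min and 6.17 and 6.15 at 90 min, a log2 difference of 0.06. Both held the STAT5 consensus, and untreated males had 5.91 and 4.78 at the first and 2.07 and 1.57 at the second. Socs2, a feedback inhibitor whose loss causes gigantism in mice, had a region at its start with 4.4 and 2.99 at 30 min and 3.9 and 3.88 at 90 min. The region 9.3 kb upstream of it had 9.54 and 6.27 at 30 min and 5.88 and 7.83 at 90 min, against 3.73 and 3.12 in untreated males. At each Socs2 site the pools of the 2 times overlapped.

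Bcl6 encodes a transcriptional repressor that can bind at STAT5 sites. At its promoter, chr16:23988379-23989308, the pools had 5.27 and 6.57 tags/M at 30 min and 9.84 and 8.7 at 90 min. The log2 difference was 0.65 (95% interval 0.20 to 1.11), with an unadjusted p of 0.00806 and a limma adjusted p of 0.414. By the authors' fold enrichment it was 0.12. The 30 min pools lay below the untreated males, which had 7.29 and 6.62, and the 240 min pools spread widely at 8.76 and 4.23. The intron region 7.5 kb into the gene, at chr16:23981112-23981743, had 7.14 and 4.3 at 30 min and 6 and 4.15 at 90 min, a log2 difference of −0.15. It was called in both pools of both times and in none of the 10 other libraries, the 240 min pools included.

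**Figure D4:**
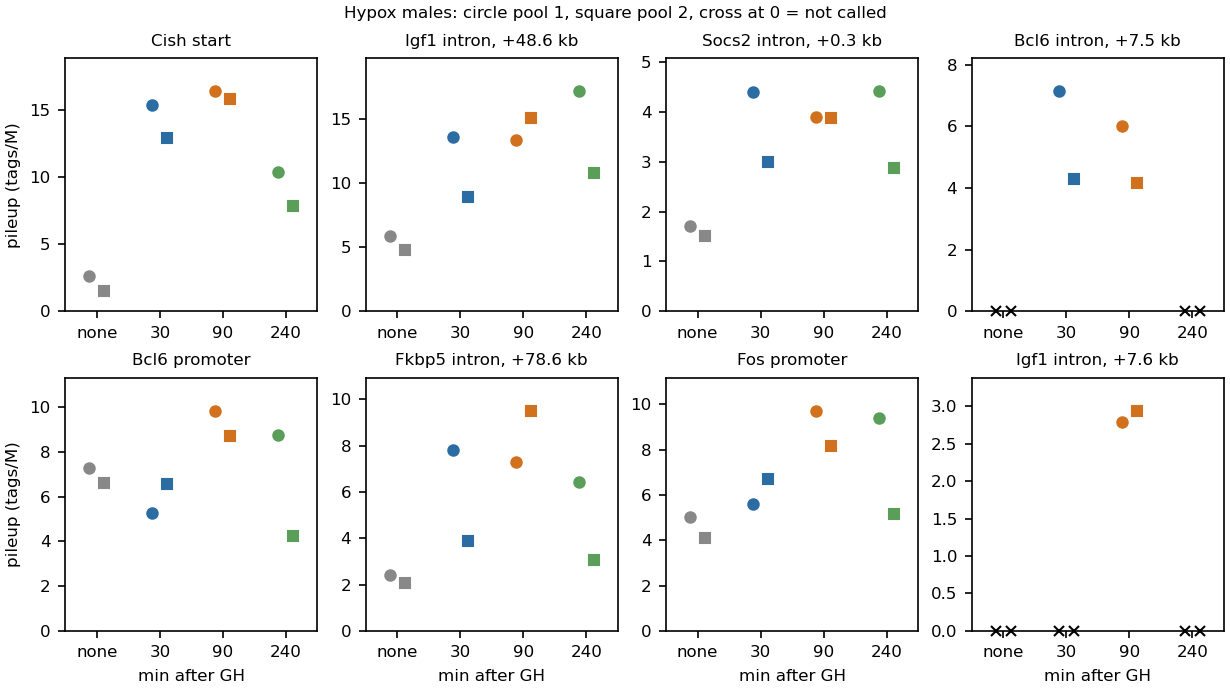
Pileup in tags/M (vertical axes, from 0) in hypox males without GH and 30, 90 and 240 min after GH (horizontal axes) at 8 regions; circles are pool 1, squares pool 2, and a cross at 0 marks a pool without a call, which is not a measured 0. The Bcl6 intron region has calls at 30 and 90 min only, the Igf1 region at 7.6 kb at 90 min only, and at the Bcl6 and Fos promoters both 90 min pools lie above both 30 min pools.

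Fkbp5, a co-chaperone gene induced by glucocorticoids, had a region 78.6 kb into the gene with 7.8 and 3.88 tags/M at 30 min and 7.28 and 9.5 at 90 min. The pools overlapped, while untreated males had 2.41 and 2.08. The log2 difference was 0.59 (95% interval −0.02 to 1.21), with a limma adjusted p of 0.487, and it rested on the 30 min pools. It was 1.10 without 30 min pool 1, with a limma adjusted p of 0.000913, and 0.09 without 30 min pool 2, with 0.898. The Fkbp5 region at 57.6 kb had 3.27 and 1.79 at 30 min and 3.38 and 2.48 at 90 min and was called in neither untreated males nor the 240 min pools. The promoter of Per1, a clock repressor gene, had 12.4 and 9.62 at 30 min and 12.9 and 11.5 at 90 min. Onecut1, which encodes the hepatocyte factor HNF6, had 5.6 and 8.01 at 30 min and 6.35 and 6.89 at 90 min at a start 5.0 kb into the gene. Trim24, a nuclear receptor co-regulator gene, had 3.87 and 3.82 at 30 min and 3.38 and 4.35 at 90 min at its promoter. The pools of the 2 times overlapped at each of these regions. At a second Per1 region, 2.0 kb into the gene, they did not, with 3.27 and 3.05 at 30 min and 3.96 and 3.95 at 90 min.

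Immediate-early genes, which respond to signals without new protein synthesis and encode factors such as FOS, JUN and EGR1, leaned towards 90 min. All 22 genes of the list had a region called in all 4 libraries, 37 regions together, and 0 passed the adjusted threshold. Their median log2 difference was 0.38 (0.26 after median-centring), against 0.16 (0.03) over all regions. On the authors' fold enrichment, which divides by local background, it was 0.01, against 0.02 over all regions, so the lean was absent on that scale. Both 90 min pools were above both 30 min pools in 20 of the 37 regions and below in 1, read against 34.2% and 9.62% of all regions. At an unadjusted p under 0.05, 10 were higher and 0 lower, where all regions had 8.73% higher and 1.76% lower.

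In pileup, the lean was present at distal regions and, though small without 30 min pool 1, at promoters of these genes. Of their 16 distal regions, 7 (43.8%) had both 90 min pools above both 30 min pools, against 23.9% of all distal regions; their median log2 difference was 0.21, but −0.1 on the authors' fold enrichment. Of 21 immediate-early promoters, 13 (61.9%) had both 90 min pools above both 30 min pools and 0 had them below. Among all 6989 promoters called in all 4 libraries, 46.6% had them above and 4.96% below. A similar lean was seen outside this list: regions of ubiquitous genes had 11 of 15 above and 1 below, with a median of 0.33. The promoter of Fos, an AP-1 subunit gene, had 5.6 and 6.69 tags/M at 30 min and 9.72 and 8.16 at 90 min, against 5.05 and 4.12 in untreated males. Gadd45g, a growth arrest gene, had 4.34 and 2.93 at 30 min and 7.63 and 5.89 at 90 min at its promoter. Nr4a1, an orphan nuclear receptor gene, had 0.8 and 1.08 at 30 min and 1.63 and 1.74 at 90 min. Jun had 9.07 and 10.3 at 30 min and 13.2 in each 90 min pool. The promoters of Myc, at 1.8 and 1.67 then 3.26 and 2.21, and of Egr1, at 7.74 and 9.32 then 13.1 and 9.7, also separated without overlap. In untreated males Egr1 had 10.2 and 7.74, overlapping both times, and Myc was called in 1 pool at 1.07. Untreated males carry another code, so GH and code cannot be told apart there. The unadjusted p was 0.0227 at Fos and 0.0032 at Gadd45g, and the limma adjusted p at Fos was 0.425. Log2 differences at the promoters of Fos, Egr1 and Myc were 0.54, 0.41 and 0.63 in pileup. By the authors' fold enrichment they were 0.03, 0.21 and 0.43.

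Among the GH and STAT5 target list, 11 of 33 regions had both 90 min pools above and 2 below, near the share of all regions, and 4 had an unadjusted p under 0.05, all higher at 90 min. All 4 were promoter regions, that of Bcl6 among them. The promoter of Pnpla2, the adipose triglyceride lipase gene, had 3.47 and 3.23 tags/M at 30 min and 6.06 and 5.75 at 90 min. That of Socs1, an inhibitor of cytokine receptors, had 2.13 and 1.97 at 30 min and 4.08 and 3.55 at 90 min. Igfals, which encodes the acid-labile subunit that holds IGF1 in serum, had 5.54 and 4.48 at 30 min and 8.27 and 6.76 at 90 min. The list's median log2 difference was 0.15, but 0.03 after median-centring and −0.14 on the authors' fold enrichment.

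The receptor and JAK list was alike, with 11 of 36 regions above and 4 below. Its nominal members, with an unadjusted p under 0.05, included a region 6.7 kb upstream of Ptpn1, a phosphatase of JAK2 and the insulin receptor, at 3.87 and 3.23 at 30 min and 6.29 and 6.56 at 90 min. An intron of Prlr, the prolactin receptor gene, had 12.7 and 8.73 at 30 min and 14.7 and 15.1 at 90 min. In the IGF axis, with 8 of 30 regions above and 2 below, the region in Irs1, an adaptor of the insulin and IGF1 receptors, had 9.54 and 6.33 at 30 min and 11.6 and 11 at 90 min, against 1.44 and 1.13 in untreated males.

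Sex-biased, metabolic and thyroid lists are read against the 34.2% of all regions with both 90 min pools above both 30 min pools and the 9.62% below. An intron of the female-biased Fmo2 at chr1:164821917-164822774 had 6.87 and 4 tags/M at 30 min and 9.32 and 9.7 at 90 min, against 0.689 and 0.772 in untreated males. The male-biased complement gene C8b, in an intron, had 2.2 and 1.85 at 30 min and 1.05 and 1.2 at 90 min. Of 22 male-biased regions 4 were above and 2 below, and of 18 female-biased regions 5 were above and 2 below. Gluconeogenesis and glycogen genes had 4 of 26 regions above and 9 below, with a median of −0.12. Thyroid-responsive genes had 6 of 18 above and 5 below, and their median of −0.15 turned to 0.14 without 30 min pool 1. In that list an intron of Thrb, a thyroid hormone receptor gene, at chr14:18679331-18679972 had 1.73 in each 30 min pool and 3.14 and 4.62 at 90 min, while an intron of Gpd2, a mitochondrial glycerophosphate dehydrogenase gene, had 8.27 and 5.38 then 4.02 and 3.01. Glucocorticoid-responsive genes had 9 of 23 regions above and 0 below. Circadian clock genes had 13 of 29 above and 4 below, lipid synthesis genes 9 of 38 and 5, and fatty acid oxidation genes 8 of 21 and 3. The 15 regions of ubiquitous genes had 11 above and 1 below, with a median of 0.33.

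The excess at 90 min was larger at promoters than at distal regions. The median log2 difference was 0.24 over 6989 promoters and 0.07 over 8434 distal regions, and after median-centring 0.12 and −0.05. Median promoter pileup was 2.13 and 2.15 tags/M in the 30 min pools and 2.68 and 2.34 in the 90 min pools, without overlap. Median distal pileup was 2.13 and 1.73 at 30 min and 2.04 and 1.87 at 90 min, with overlap. The promoter median minus the distal median, on the log2 scale, was 0 in 30 min pool 1, 0.312 in 30 min pool 2, 0.394 in 90 min pool 1 and 0.322 in 90 min pool 2. The gap between the 30 min pools was thus larger than that between 30 min pool 2 and either 90 min pool. Without 30 min pool 1 the median differences were 0.24 at promoters and 0.21 at distal regions. Without 30 min pool 1 promoters made up 18.9% of the 30 min-only class and 26.4% of the 90 min-only class, closer than the 10.9% and 30.7% with it. The median of the immediate-early promoters was 0.28 without it, against 0.24 over all promoters.

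**Figure D5:**
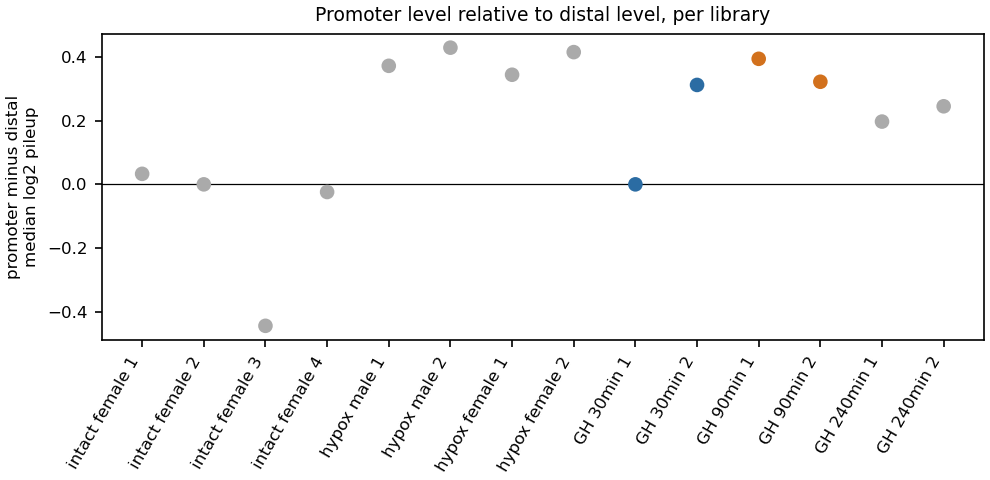
Median log2 pileup of promoters minus that of distal regions (vertical axis) in each of the 14 libraries (horizontal axis), over the regions called in all 4 libraries at 30 and 90 min that had a call there. The 30 min pools (blue) lie at 0 and 0.312, the 90 min pools (orange) at 0.394 and 0.322, and the intact female pools at or below 0.033.

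STAT5 sites did not separate the times. The median log2 pileup of regions with the consensus minus that of regions without it was 0.331 and 0 in the 30 min pools and 0.141 and 0.133 in the 90 min pools. The mean at 90 min minus that at 30 min was −0.029, and the 90 min pools lay between the 30 min pools. Among distal regions it was 0.036. The same palindrome with a gap of 4 or 2 bases in place of 3, used as a spacing control, gave −0.104 and 0.019. The consensus TGACGTCA of the cyclic AMP response factor CREB had values of 0 and 0.087 at 30 min and 0.20 and 0.175 at 90 min, without overlap, over 281 regions with it. The pools were also without overlap for 5 others of the 16 motifs compared. For 2 pools against 2, that has a chance of 0.333 per motif when the times do not differ. The mean at 90 min minus that at 30 min was −0.145 for HNF6, −0.119 for the glucocorticoid receptor, −0.061 for the nuclear receptor hexamer, −0.211 for its direct repeat and 0.074 for the E-box, against 0.145 for CREB. Differences of this size thus occurred in both directions. The direct repeat was in 12 regions and the glucocorticoid receptor consensus in 71. Among distal regions, CREB at 0.203, HNF6 at −0.132 and the direct repeat at −0.199 kept their direction without overlap. Within distal regions alone, ETS at 0.131, AP-1 at 0.094 and the spacing control with a gap of 2 at 0.065 were also without overlap. With overlap there, the glucocorticoid receptor turned to 0.035 and the E-box to −0.043, and the hexamer was −0.02.

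Regions that both GH times shared but untreated males lacked were rich in the consensus and similar in height at the 2 times. Of the 15423 shared regions, 1133 were called in neither untreated pool, and 600 of these held TTCNNNGAA (53%), against 8.31% of the 13550 called in both untreated pools. The spacing controls with a gap of 4 and 2 bases were in 12.1% and 8.56% of the 1133, against 4.86% and 5.2% of the 13550. Promoters made up 9.09% of the 1133. Their median pileup was 2 and 1.37 tags/M at 30 min and 1.8 and 1.61 at 90 min, with overlap, and the median log2 difference was 0.11. Both 90 min pools lay above in 237 (20.9%) and below in 121 (10.7%). Both 240 min pools called 362 of the 1133 (32%) and neither called 475 (41.9%), while both called 93.2% of the 13550. Because untreated males carry another code, GH and code cannot be told apart in this split, whereas the 30, 90 and 240 min libraries share a code.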

How the data were processed

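DNase-seq was measured in 14 mouse liver libraries, each a pool of livers, of which the 4 at 30 and 90 min after GH were compared. The submitters' processing notes name Bowtie2 and the build mm9. Peak calling was done per library with MACS2 2.1.0.20150731 without a control library, per the file headers, with a q cutoff of 0.05, tags shifted by -100 bp and extended to 200 bp. The deposited lists give for each peak a pileup signal at the summit, which was a whole number of tags in every peak used, a fold enrichment as a ratio to local background, and −log10 values of p and q. The authors' fold and −log10 values were used only to describe and filter peaks, and the fold also in 1 alternative. The authors' combined lists were not used. Depth was 14992887, 16733489, 17174839 and 14947292 tags in the compared libraries, and 13078268 to 33700120 over the series.

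Peaks on autosomes and X were merged at 1 bp of overlap. Pileup was scaled to 1000000 tags of the library and tested as log2 values, with no pseudocount, by limma 3.58.1 in R 4.3.3 (trended moderated statistics, two-sided, Benjamini-Hochberg adjustment) over the 15423 regions called in all 4 libraries. The model was checked on simulated data. A region without a call has no pileup, which means that it was not detected at that depth. Regions were linked to a gene when they lay in it or up to 10 kb upstream, with GENCODE vM1. Sequences came from the mouse reference of the same build, on which 0 peaks reached past a chromosome end. Named regions were the 10 tallest of each class, class regions at listed hormone and liver genes, the 10 with the smallest p, and up to 2 regions at each of 11 fixed genes. Members, lists and named genes were chosen with earlier results of these data known. Other list regions with an unadjusted p under 0.05 were named after their values were seen. Pools are separate samples in the labels, and p-values measure the spread between pools. Some regions that these rules choose are not reported here.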

Additional observations from a re-analysis of the deposited data

Results flagged for a closer look

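In intact female pool 3 the promoter median lay below the distal median by more than in any other library, with a promoter minus distal difference of -0.444 on the log2 scale, against 0.033, 0 and -0.024 in the other intact female pools. Its gap to the nearest pool was 0.881 of the range of the group, above the critical value of Dixon's test at the 95% level. Of 5 quantities checked this way in the intact females it was the one past the value, and chance puts about 1 in 20 groups past it. The same pool called 62.4% of the regions called in all 4 GH libraries at 30 and 90 min, the lowest share of the intact females. Intact female pools 3 and 4 carry the code G93 and the other intact female pools G92. Pool 4, at -0.024, lay with the G92 pools. Whether the code bears on the value of pool 3 was not tested.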

How the results depend on the processing

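Pileup calls at an adjusted p of 0.05 depended on the setting. Median-centring gave 1 region higher and 0 lower (0.0474 at the Ifna13 region), regions called in at least 1 library of each time, with at least 3 values, gave 1 higher, and the authors' fold enrichment gave 2 higher (Ifna13 and the promoter of Mfsd8). A pseudocount, a minimum mean of 30 tags, summits within 100 bp and a spread taken from the 10 G92 libraries gave 0 in either direction. Leaving out a pool gave 0 to 475 higher and 0 to 92 lower; it left 1 pool at a time, assumed to vary like the others. The replicate block on pool numbers gave 39 higher and 7 lower, and with median-centring, added after seeing the data, 1 and 0. Over regions, pool 1 minus pool 2 was not correlated between the times (−0.048). Such a correlation does not see an offset common to all regions. The median log2 pileup was higher in pool 1 at both times. It was 1.094 and 0.935 in 30 min pools 1 and 2, and 1.22 and 1.052 in 90 min pools 1 and 2. In the labels, same-numbered pools share only a number. The cause of the differences between settings was not tested.

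The 30 min-only count was 470 to 654, and the 90 min-only count 727 to 855, under equal list lengths, a −log10 q of at least 5 and a merge at 100 bp. Leaving out a pool gave 864 to 2371 and 1923 to 4051. The class of that time then needs a call in 1 pool, and the other class an absence from 1 pool. The STAT5 contrast was −0.055 to 0.036 over the sets of regions tried.

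Over the named regions called in all 4 libraries, 289 values kept direction and side of the threshold, 37 gained the threshold and 28 reversed. Median-centring, alone or with the replicate block, turned Socs2 at 0.3 kb to −0.02 and Igf1 at 27.6 kb to −0.06, and Trim24 in its intron to 0. The authors' fold turned Socs2 to −0.17, Cish to −0.14, Igf1 to −0.01 at 48.6 kb and −0.14 at 27.6 kb, the Onecut1 promoter (Gm16551) to −0.2 and the Per1 promoter to −0.08. With a pool left out, signs turned within −0.49 to 0.11 at the Socs2 upstream region (5730420D15Rik), −0.18 to 0.38 at Socs2, −0.01 to 0.13 at Igf1 27.6 kb, −0.52 to 0.21 in the Bcl6 intron, −0.28 to 0.24 at Onecut1, −0.1 to 0.51 at Gm16551, −0.19 to 0.18 and −0.2 to 0.44 at Trim24, −0.18 to 0.69 at Fkbp5 57.6 kb, −0.02 to 0.34 at Per1 and −0.57 to 0 at Myc 1.8 kb upstream. With 2 pools a time at this depth, log2 differences under 0.64 mostly did not reach an unadjusted limma p of 0.05. The adjusted threshold needed larger differences.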
